A study of Mus musculus with 24 samples.

Results

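The joining of V to J segments in transcripts of the T cell receptor alpha chain (Tcra) was examined in 6 thymocyte libraries, 3 from wild-type mice and 3 from Satb1 knockout mice, out of 24 libraries in the series. The libraries were chosen by chain and genotype as labelled, and the other 18 hold the beta, gamma and delta chains. All mice were on a C57BL/6 background and between 4 and 12 weeks old. The labels call the knockout genotype Satb1-/-, while the series design names it Satb1cKO, a conditional knockout, without giving the Cre driver. The labels do not say whether replicates were separate mice, so all p-values below measure the spread between libraries only. Satb1 is not measured in these tables, so the genotype labels could not be checked against it.

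The Tcra locus joins 1 of many V segments to 1 of many J segments with no D segment between them. The first joining in a thymocyte usually uses V and J segments that lie close to each other, and later rounds of joining on the same allele replace the first product with V segments farther upstream and J segments farther downstream. V and J use are therefore coupled by position in a normal thymus. Satb1, a protein of the nucleus, binds AT-rich DNA and shapes chromatin structure in thymocytes. The comparison made here is whether its loss changed the J profile of each V segment and the V profile of each J segment, once the use of the segments themselves is set aside.

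Each library is a table of 117 V segments by 43 J segments, and each value is the percentage of the library's assignments that joined that pair. No counts are given and depth is unknown, so no counting intervals could be computed. The smallest value above 0 was 0.0158%, 0.0157% and 0.0241% in wild-type replicates 1, 2 and 3, and 0.0180%, 0.0593% and 0.117% in knockout replicates 1, 2 and 3. Knockout replicates 2 and 3 also listed fewer pairs, 555 and 374 of 5031 possible pairs, against 1380 in knockout replicate 1 and between 1573 and 1978 in wild type. A V segment that was tested had a median of 9.5 pairs above 0 in knockout replicate 2 and 6 in knockout replicate 3, against 23.5 in knockout replicate 1 and 26.5 to 32 in wild type. J profiles of single V segments therefore rest on few pairs in those 2 libraries.

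J segments are numbered downwards from the V side of the locus, so a high number marks the 5′ end of the array. The sequences of 6 J segments are shown because the results turn on them. TRAJ58, TRAJ57 and TRAJ56 are the 3 outermost listed at the 5′ end, and TRAJ2 is the last listed at the 3′ end. TRAJ50 and TRAJ49 are the 5′ J segments whose share of delta V segments passed the limma test described below. The 6 lie on the plus strand of chromosome 14 of GRCm38, from TRAJ58 at 54157280 to 54157342 to TRAJ2 at 54217836 to 54217901, and their sequences are those of GENCODE M21. Capitals mark the stretch that encodes the conserved phenylalanine-glycine motif of J segments. It was found by searching each transcript, on its sense strand and in any frame, for the codons of phenylalanine, glycine, any residue and glycine. Of the 43 listed J segments, 40 (93.0%) hold a match. The match in TRAJ7 lies in a different frame from the others, counted from the 3′ end, so it need not encode the motif.
TRAJ58: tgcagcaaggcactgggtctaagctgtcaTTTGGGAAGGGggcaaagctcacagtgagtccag
TRAJ57: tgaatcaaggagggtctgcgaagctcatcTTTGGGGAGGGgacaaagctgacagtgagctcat
TRAJ56: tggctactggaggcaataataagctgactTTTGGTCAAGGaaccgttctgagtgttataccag
TRAJ50: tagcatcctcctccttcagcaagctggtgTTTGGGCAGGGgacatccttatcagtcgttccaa
TRAJ49: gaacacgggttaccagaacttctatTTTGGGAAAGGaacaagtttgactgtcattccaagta
TRAJ2: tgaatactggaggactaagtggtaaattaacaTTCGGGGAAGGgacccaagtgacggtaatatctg

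In wild-type libraries the J profile of a V segment followed its place in the locus. V segments were ranked by annotated position from 1, the farthest from the J array, to 114. TRAV7D-5, a distal segment at rank 19, had a mean J number of 26.6, 26.6 and 29.3 in the 3 wild-type libraries. TRAV12-2, in the proximal group at rank 90, had 31.5, 30.9 and 32.4. TRAV21/DV12, a dual-use segment that also serves the delta chain and lies at rank 109, had 47.6, 46.7 and 44.0. TRDV2-2, a delta V segment at rank 112, had 49.6, 48.1 and 53.4. Across the 44 V segments tested, the Spearman correlation of V rank with mean J number was 0.82, 0.603 and 0.725 in the 3 wild-type libraries. Among knockout libraries it was 0.679 in replicate 1, within the wild-type range, and 0.251 and 0.283 in replicates 2 and 3, over 44, 40 and 40 V segments. These correlations describe segments of the same library, which are not independent replicates.

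In the knockout most V segments were joined to J segments farther 5′. Of 44 V segments with a mean share of at least 0.5%, 30 rose in mean J number and 0 fell (limma, adjusted p under 0.05; 68.2% of V segments tested were called). The median change was 12.6 J numbers, with a median of 30.2 in wild type against 46.3 in the knockout, and 43 of 44 changes lay above 0. For 33 of the 44, every knockout value present lay above every wild-type value, though some of these V segments had only 1 or 2 knockout values. Of the 44, 38 had a value in all 6 libraries, and among these alone 28 were called. With the D and N copies of a V segment summed, 26 of 33 were called. With knockout replicate 1 as the sole knockout library, 27 of 44 were called, under the assumption that it varies like the other libraries.

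**Figure D1:**
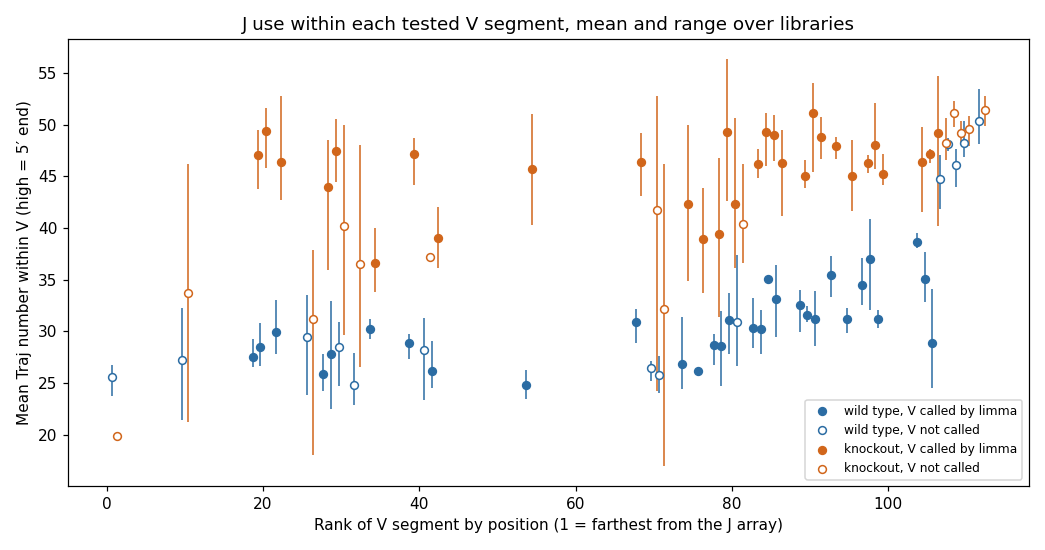
Mean Traj number within each of the 44 tested V segments (y axis) against V rank by position (x axis), with points for the mean over wild-type (blue) or knockout (orange) libraries and lines for their range. Filled points are V segments called by limma. Wild-type values rise toward the J array, and 22 of the 39 other V segments reach, in the knockout, the wild-type range of the 5 nearest to the array. For TRAV17, TRAV19, TRAV21/DV12, TRDV1 and TRDV2-2, at the right, no change was called.

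Among distal V segments, TRAV7D-5 was the most used. Its mean J number was 43.7, 47.97 and 49.5 in the 3 knockout libraries, all above the wild-type range, a rise of 19.6 (SE 2.32, limma adjusted p = 0.000741). Its share joined to 5′ J segments (Traj42 and higher numbers) went from 24.8% to 75.1% (limma adjusted p = 0.00120). TRAV12D-1 rose by 20.9 J numbers (SE 2.44), from 28.5 to 49.4, the largest change among the V segments called. TRAV12D-3 rose from 25.9 ± 1.79 to 44.0 ± 7.03 (SD, n = 3; limma adjusted p = 0.00294). TRAV3D-3 (24.8 and 36.5) was not called (limma adjusted p = 0.0694), and its knockout replicate 3 value rests on 1 pair. TRAV1, at rank 1, was above 0 in only 1 knockout library and was not called. In all, 6 of the 11 distal V segments tested rose and 0 fell, which left 5 without a call, against 30 of 44 that rose over all V segments tested.

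The middle and proximal groups moved in the same direction. In the middle group 4 of 7 tested rose and 0 fell, with a median change of 15.3 against 12.6 over all V segments tested. TRAV16D-DV11, a dual-use segment, rose from 28.8 ± 1.34 to 47.1 ± 2.54 (SD, n = 3). TRAV16N rose from 30.9 ± 1.79 to 46.4 ± 3.09 and TRAV12N-2 by 20.9 (SE 3.58), the latter with no value in knockout replicate 2. In the proximal group 20 of 24 tested rose and 0 fell. Over all V segments tested, 30 of 44 rose. TRAV12-2 had 45.4, 54.1 and 54.0 in the knockout libraries, all above the wild-type values given above, a rise of 19.6 (SE 2.81, limma adjusted p = 0.000951). Its share joined to TRAJ58, TRAJ57 and TRAJ56 together was 11.1%, 8.54% and 7.18% in wild type against 39.6%, 65.2% and 67.9% in the knockout.

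TRAV13-1 rose by 13.9 (SE 2.06), TRAV7-5 by 15.9 (SE 2.22), TRAV3-3 by 13.9 (SE 2.39), TRAV7-4 by 12.7 (SE 2.83), TRAV4-4-DV10 by 11.9 (SE 2.12) and TRAV6-7-DV9 by 14.04 (SE 2.00). These 6 are the remaining proximal segments with a share of at least 2% that were called. TRAV6-5 and TRAV3-4, which are less used, rose by 20.8 and 20.3. TRAV13D-2, a distal segment with no value in knockout replicate 3, rose by 19.7. The smallest changes that were called were those of TRAV4D-4 (6.35), TRAV13-4-DV7 (7.70), TRAV9-1 (10.8), TRAV5-4 (11.1) and TRAV10 (11.3). TRAV4D-4 had 29.3, 30.3 and 31.2 in wild type against 33.8, 36.0 and 40.0 in the knockout. These values did not overlap, although the change was small. Its 5′ J share was not called (limma adjusted p = 0.818) and was 34.9%, 66.7% and 0% in the knockout libraries. Of the dual-use V segments, 4 of 6 tested rose and 0 fell, which is close to the 68.2% called over all V segments tested.

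For the 5 tested V segments nearest to the J array no change was called. TRDV1, a delta V segment, had a mean J number of 47.5, 46.9 and 50.3 in wild type against 50.0, 47.9 and 50.8 in the knockout, so that the groups overlapped. The change was 1.34, with a 95% limma interval from -3.52 to 6.20 (adjusted p = 0.564). TRDV2-2 had 52.8, 51.5 and 49.8 in the knockout libraries, within the wild-type range, with a change of 0.98 and an interval from -4.30 to 6.25 (limma adjusted p = 0.693). For TRAV21/DV12 the knockout values were 48.2, 49.0 and 50.3, all just above wild type, with a change of 3.10 and an interval from -1.69 to 7.88. The changes of TRAV17 (3.53, interval from -1.91 to 8.96) and TRAV19 (2.99, interval from -1.52 to 7.49) were not called either. In wild type these 5 segments had mean J numbers between 44.7 and 50.4. The scale ends at TRAJ58, so that they had little room to rise, and a change as large as the median of 12.6 over all V segments tested was hardly possible for them. None of the other 39 V segments had a wild-type mean in that range, and 22 of the 39 had a knockout mean in it. With values below the coarsest library's smallest value set to 0, the changes of these 5 turned negative, from -1.87 (TRAV21/DV12) to -6.16 (TRDV2-2). The 5 were singled out after their values were seen.

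The share joined to the 3 outermost J segments was computed after the values were seen and was not tested. TRAJ58, TRAJ57 and TRAJ56 together took 55.9%, 50.0% and 55.6% of TRDV2-2 in wild type against 57.8%, 50.0% and 42.9% in the knockout. They took 52.4%, 40.2% and 37.8% of TRAV21/DV12 in wild type against 44.9%, 36.4% and 52.3% in the knockout. Wild-type and knockout values overlap for both. For TRAV7D-5, by contrast, the same 3 J segments took 8.29%, 8.37% and 5.39% in wild type against 34.2%, 39.9% and 33.3% in the knockout, with no overlap. Distal V segments were not alike in this share. TRAV12D-1 had means of 4.77% in wild type and 38.3% in the knockout. TRAV4D-4, however, had 7.33% and 1.55%, and TRAV14D-2 had 9.56% and 5.83%.

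By share of J ends, 24 of the 44 V segments rose in 5′ J share and 0 fell (54.5% called), and 25 fell in 3′ J share (Traj21 and lower numbers) while 0 rose (56.8% called). The median change was 36.5 percentage points for the 5′ share and -22.2 for the 3′ share. With knockout replicate 1 as the sole knockout library, 27 V segments were called for the 5′ share but 1 for the 3′ share. With each pair above 0 counted once, whatever its share, 0 V segments were called for the 5′ share by limma, and 16 were called for the mean J number.

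**Figure D2:**
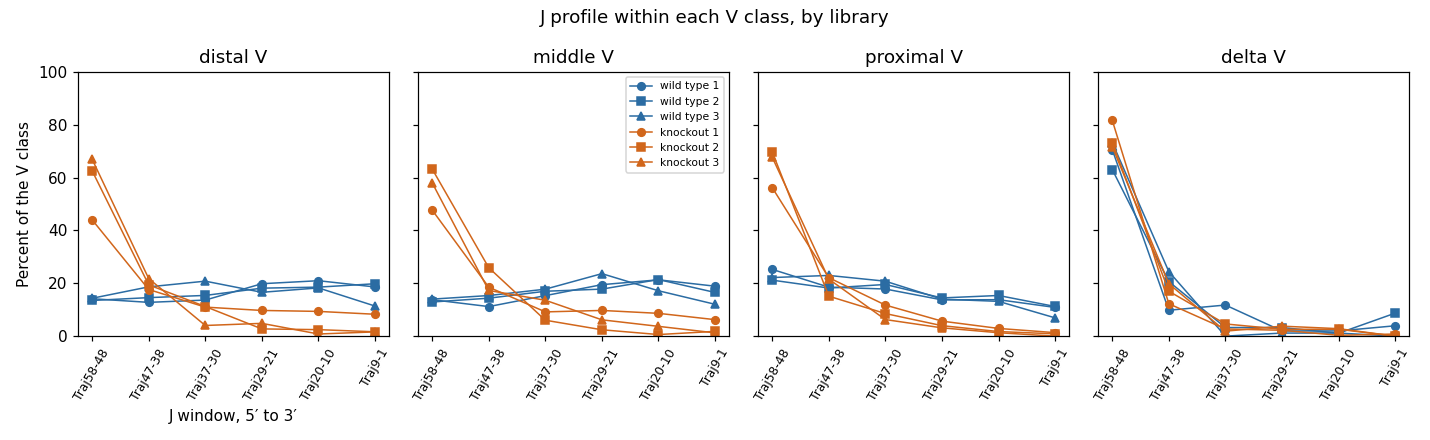
Percent of each V class (y axis) joined to J segments of 6 successive windows from 5′ to 3′ (x axis), 1 line per library, wild type in blue and knockout in orange. In the distal, middle and proximal classes the knockout lines stand above wild type in the first window and below it from the third window on, while in the delta class the values of both genotypes overlap in the first window.

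Summed over V classes the same contrast appeared. The classes are the delta V segments (5) and 3 groups of the other V segments by position, 37 distal, 36 middle and 36 proximal. Within distal V segments the 5′ J share was 20.9%, 21.1% and 24.6% in wild type against 55.6%, 72.7% and 80.6% in the knockout. Proximal V segments had 37.4%, 32.4% and 34.2% in wild type against 69.5%, 78.8% and 80.4% in the knockout. Delta V segments stood at 80.4%, 83.7% and 91.9% in wild type against 88.7%, 81.8% and 90.6% in the knockout, so that the genotypes overlapped in this class. They did not overlap in the distal, middle or proximal class. The lead of delta over distal V segments in 5′ J share was 63.1 ± 3.91 percentage points in wild type and 17.4 ± 13.6 in the knockout (SD, n = 3), lower in all 3 knockout libraries. Since delta V segments already stood at 80.4% or more in wild type and a share cannot pass 100%, a rise as large as the 47.4 points of distal V segments was not possible for them, so the smaller lead is not independent of the distal rise. Two-sided, the exact permutation test returned p = 0.1. No smaller p can arise from 3 against 3 libraries, and adjustment over the 56 single values (Benjamini-Hochberg) brought it to 0.207. This difference was chosen after the values were seen. The lead of proximal over distal V segments was 12.5 ± 3.60 points in wild type and 6.59 ± 7.03 in the knockout (exact permutation p = 0.3, adjusted 0.454). Knockout replicate 1, at 13.8 points, lay within the wild-type range of 9.61 to 16.5, and replicates 2 and 3, at 6.13 and -0.20, lay below it.

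To set V use aside, each library was recomputed with V use held at the wild-type mean. The mean J number as listed was 30.5 ± 1.56 in wild type against 47.2 ± 2.28 in the knockout. At wild-type V use it was 30.2, 29.7 and 32.0 in the wild-type libraries and 40.2, 45.4 and 46.4 in the knockout libraries, again with no overlap (exact permutation p = 0.1, adjusted 0.207). Of the difference of 16.6 J numbers, 13.4 remained, or 80.6%. For the 5′ J share, 81.0% of the difference remained (37.4 of 46.2 percentage points), and for the 3′ J share 82.0%. The remainder, the listed value minus that at wild-type V use, was highest in knockout replicate 1, at 4.29 J numbers. In replicates 2 and 3 it was 2.91 and 2.19. This remainder rests on the J profiles of each library, so it does not measure V use alone.

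**Figure D3:**
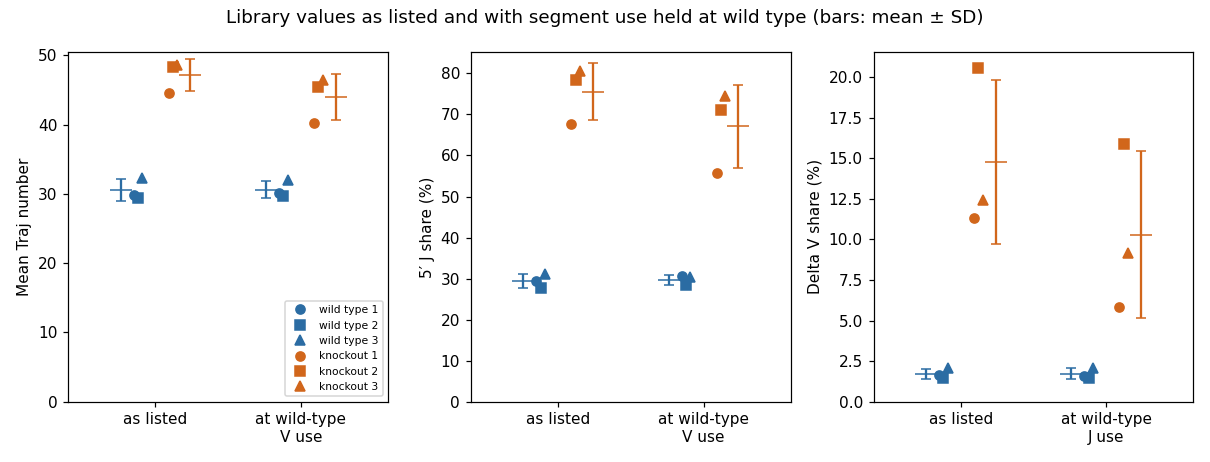
Values of each library as listed and with V use (mean Traj number and 5′ J share) or J use (delta V share) held at the wild-type mean; symbols are libraries and bars are mean ± SD of 3. All 3 knockout libraries stay above wild type in each panel after the adjustment.

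The V profile of the J segments was compared in the same way. In wild type a 5′ J segment was joined to V segments near the array and a 3′ J segment to V segments farther away. TRAJ58 had a mean V rank of 75.3, 81.8 and 92.1 in the 3 wild-type libraries and TRAJ2 had 49.9, 56.5 and 59.6, with no overlap between them. Across the 41 J segments tested, the Spearman correlation of J number with mean V rank was 0.885, 0.829 and 0.779 in wild type. In the knockout it was 0.874, 0.4355 and 0.368 over 41, 36 and 32 J segments, so that replicate 1 lay within the wild-type range and the coarser libraries below it. The part of resolution in this difference was not tested.

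No J segment was called for mean V rank by limma (0 of 41, 0.0% called; 12 at an unadjusted p under 0.05; smallest adjusted p = 0.0604). All 13 5′ J segments and all 15 middle J segments had a change above 0, with medians of 8.07 and 12.2 ranks against 9.17 over all J segments. Of 13 3′ J segments 5 were above 0 and 8 below, and only 4 of these 13 had a value in all 6 libraries. Without knockout replicate 1, 11 of 38 J segments were called, 9 higher and 2 lower, and without knockout replicate 2 5 of 41, 4 higher and 1 lower. TRAJ38 (61.2 in wild type, 87.0 in the knockout, with no value in knockout replicate 3), TRAJ23 (55.4 and 80.2), TRAJ27 (64.0 and 83.0, with no value in knockout replicate 2), TRAJ26 (61.0 and 79.1) and TRAJ33 (67.1 and 84.9) had the highest changes. TRAJ9 (56.99 and 33.6), TRAJ11 (57.6 and 34.4), TRAJ18 (57.2 and 37.6), TRAJ13 (58.1 and 46.8) and TRAJ16 (57.1 and 45.8) had the lowest. Of these 5, only TRAJ9 had values in all 3 knockout libraries, at 41.7, 45 and 14. TRAJ16 rests on knockout replicate 1 alone. At the outer ends, TRAJ58 had 86.9, 80.9 and 89.6 in the knockout, overlapping with wild type, and TRAJ2 had a value in knockout replicate 1 alone, 47.9.

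**Figure D4:**
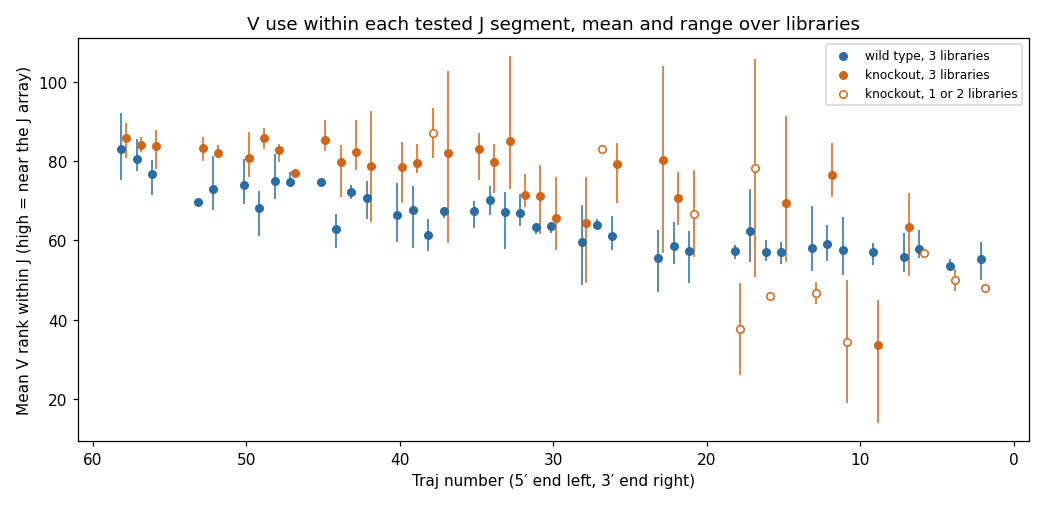
Mean rank of the V segments joined to each of the 41 tested J segments (y axis; high ranks lie near the J array) against Traj number from 5′ to 3′ (x axis), with points for means and lines for the range over libraries. Knockout points lie above wild type for the 13 5′ and 15 middle J segments and on both sides of it at the 3′ end, where open points rest on 1 or 2 knockout libraries.

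Delta V segments took a larger part of TRAJ50 and TRAJ49 in the knockout. TRAJ50 was joined to delta V segments in 4.92%, 0% and 2.90% of its wild-type transcripts and in 16.6%, 22.3% and 26% in the knockout, with no overlap (limma adjusted p = 0.0251). TRAJ49 went from 4.02%, 3.53% and 7% to 19.5%, 14.9% and 15.6%, again with no overlap (limma adjusted p = 0.0251). The lack of overlap was not particular to them. Knockout values also lay above all wild-type values for TRAJ57, TRAJ56, TRAJ53, TRAJ52, TRAJ48 and TRAJ42, which were not called. TRAJ6 was the third J segment called, on a single knockout value of 10% in replicate 1. TRAJ6 lies near the 3′ end, and its knockout value has no spread of its own. The count is thus 3 of 41 (7.32% called), all higher, and 2 of 30 among J segments with a value in all 6 libraries. The count depended on single libraries: 0 J segments were called without any 1 of the 3 wild-type libraries or without knockout replicate 2, 7 without knockout replicate 1, and 0 with the replicate number as a block. All 13 of the 5′ J segments had a mean delta V share above that of wild type, as did 13 of 15 middle J segments and 31 of all 41. Among the 5′ J segments, single libraries of the genotypes overlapped for TRAJ58, TRAJ47, TRAJ45, TRAJ44 and TRAJ43. The share of proximal V segments gave no call by limma among 41 J segments (0.0% called, 4 at an unadjusted p under 0.05), and 6 without knockout replicate 1. Its change was below 0 for 9 of 13 5′ J segments and 11 of 13 3′ ones, and above 0 for 12 of 15 middle ones. The higher mean V rank of the 5′ J segments thus did not come with a higher proximal V share in most of them.

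With J use held at the wild-type mean, the delta V share was 1.58%, 1.47% and 2.10% in wild type against 5.81%, 15.9% and 9.18% in the knockout, with no overlap (exact permutation p = 0.1, adjusted 0.207). Thus 65.7% of the listed difference of 13.1 percentage points remained within J segments. This adjustment also gives weight to J segments that were nearly empty in the knockout. TRAJ17, with 2.99% of wild type, was 66.7% delta V in knockout replicate 2 on 0.178% of the library, and its missing replicate 3 value was filled in from the other knockout libraries. TRAJ16, above 0 only in knockout replicate 1, took its value of 0% in replicates 2 and 3. The remaining difference of 8.59 points was 5.22 without knockout replicate 2 and 12.2 without knockout replicate 1. Of the lower share of distal V segments, which was 30.5% ± 5.33 in wild type against 18.8% ± 3.75 in the knockout, 38.9% remained at wild-type J use, where the groups overlapped (30.3% and 25.8%, exact permutation p = 0.4, adjusted 0.533). Middle V segments (16.6% ± 0.73 and 9.72% ± 0.199 as listed) also overlapped at wild-type J use, with 35.4% of the difference left. The share of proximal V segments did not separate the genotypes in either form (51.2% and 56.7% as listed, exact permutation p = 0.3; 51.3% and 49.7% at wild-type J use, exact permutation p = 0.7).

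Coupling in the strict sense is what remains once both margins are removed, so each pair was compared with the product of its V share and its J share. Among the 202 V–J pairs that averaged 0.1% or more, 0 were called by limma for log2(observed over expected), and 25 had an unadjusted p under 0.05 (0.0% called, smallest adjusted p = 0.221). The count stayed at 0 in all 11 alternatives that were run. Among the 8 pairs with the lowest unadjusted p, 4 joined a V segment near the array to TRAJ57 or TRAJ58 and 3 held TRAV6-7-DV9. These counts were not set against the share of such pairs among the 202, so no pattern is read from them. TRAV17 with TRAJ57 had a mean log2(observed over expected) of 2.18 in wild type against 0.03 in the knockout (limma adjusted p = 0.221), and TRDV1 with TRAJ57 had 1.84 and -0.36. TRAV21/DV12 had 2.08 and 0.27 with TRAJ57, and 2.00 and 0.45 with TRAJ58. TRAV6-7-DV9 had 0.56 and -1.76 with TRAJ42, and -1.31 and 1.17 with TRAJ37. Its TRAJ42 pair held 0.0541%, 0% and 0% of the knockout libraries. That knockout mean thus leans on the pseudocount, which lies below the smallest value above 0 of replicates 2 and 3. In replicate 3 the TRAJ37 pair stood at 0.117%, the smallest value above 0 of that library. These pairs were chosen after their values were seen. As shares of the library the TRAV21/DV12 with TRAJ57 pair held 0.380%, 0.283% and 0.217% in wild type against 1.70%, 0.890% and 2.46% in the knockout, so it was above its expected share in both genotypes on average while its own share was higher in every knockout library.

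**Figure D5:**
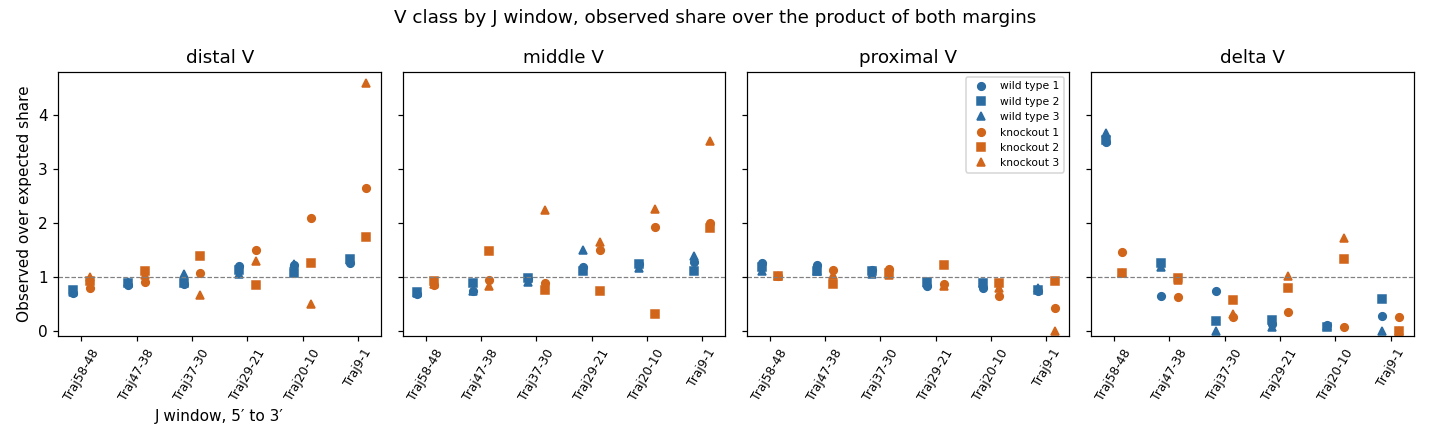
Observed share of each V class in each J window divided by the product of the 2 margins (y axis; the dashed line at 1 marks independence), by window from 5′ to 3′ (x axis), with 1 symbol per library. Delta V segments with Traj58 to Traj48 stand near 3.5 in wild type, and at 1.46, 1.07 and 1.07 in knockout replicates 1, 2 and 3, where the ratio cannot exceed 1.46 to 1.79, depending on the library.

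By class, delta V segments were joined to the first J window (Traj58 to Traj48) 3.49, 3.53 and 3.66 times as often as the margins give in wild type, and 1.46, 1.07 and 1.07 times in the knockout (exact permutation p = 0.1, adjusted 0.207). The ratio is bounded by how common the window is. The first window held 19.4% ± 1.29 of wild-type libraries, which allows a ratio of at most 5.16, and 63.8% ± 6.90 of knockout libraries, which allows 1.57 at the mean share and 1.79, 1.46 and 1.49 in replicates 1, 2 and 3. All 3 knockout ratios lay below these bounds, and the part of the bound in the difference was not tested. Proximal V segments with the first window had 1.25, 1.18 and 1.11 in wild type against 1.01, 1.02 and 1.01 in the knockout, all 3 lower. Distal V segments with that window, which were joined less often than the margins give in wild type (0.699, 0.754 and 0.716), had 0.789, 0.917 and 0.996 in the knockout. Middle V segments went from 0.701 ± 0.0204 to 0.882 ± 0.0391. In each of the 4 classes the 3 knockout libraries lay outside the wild-type range on the side of 1.

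At the 3′ end the ratios of distal and middle V segments lay farther from 1 in the knockout than in wild type. Distal V segments with the last window (Traj9 and lower) had 1.26, 1.33 and 1.31 in wild type against 2.64, 1.73 and 4.59 in the knockout, higher in all 3. Middle V segments had 1.28, 1.11 and 1.39 against 1.99, 1.90 and 3.51. Proximal V segments had 0.736, 0.755 and 0.796 against 0.420, 0.914 and 0, which straddle wild type. Delta V segments had 0.266, 0.585 and 0 against 0.254, 0 and 0, which overlap. This window held 12.8% ± 3.54 of wild-type libraries but 3.14%, 0.949% and 0.352% of the knockout libraries, so the knockout ratios rest on few pairs, above all in replicate 3. By the window share alone the highest ratio would be 6.77, 6.73 and 11.5 in wild type against 31.9, 105 and 284 in the knockout. Distal and middle ratios could not reach these values, because the share of the V class bounds the ratio too and exceeded the window share in every library. Distal V segments held 34.8%, 32.1% and 24.5% of wild-type libraries and 20.0%, 21.7% and 14.5% of knockout libraries.

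Over the whole table, the share-weighted correlation of V rank with J number was 0.249, 0.201 and 0.194 in wild type against 0.255, 0.0761 and 0.0716 in the knockout. Knockout replicate 1 lay just above the wild-type range and the 2 coarser libraries far below it, and the groups did not separate (exact permutation p = 0.4, adjusted 0.533). Without knockout replicate 1 the difference was -0.14 instead of -0.081. The mutual information of V class and J window was 0.0505, 0.0341 and 0.0495 bits in wild type and 0.0655, 0.0169 and 0.0227 bits among knockout libraries, with the same library apart (p = 0.6 by exact permutation, adjusted 0.747). In the beta chain of the same series, in which D joins J before V, the correlation was 0.0110, 0.0236 and 0.0168 in wild type against 0.0104, -0.00764 and 0.0268 in the knockout. Each of the 6 Tcra values exceeded each of the 6 Tcrb values, which was not tested.

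Copies of V segments allowed V position to be compared within sets of related segments. In C57BL/6 mice many V segments occur in several copies at different distances from the J array, and reads of such copies can be hard to tell apart. Among 12 sets with at least 2 tested copies, the copy nearer to the J array had the higher wild-type mean J number in 11, and in 8 sets in all 3 wild-type libraries. Identity between the copies compared, counted over the longer transcript, ran from 74.1% to 99.005%. TRAV3-3 had 31.1 against 24.8 for TRAV3D-3, whose transcript is 96.0% identical, and TRAV4-4-DV10 had 34.4 against 30.2 for TRAV4D-4, which is 95.0% identical. TRAV14-2 had 35.4 against 28.5 for TRAV14D-2, at 81.5% identity. TRAV7-5 had 30.3 against 27.5 for TRAV7D-5. TRAV7-3 had 26.8 against 27.2 for TRAV7D-3, the exception. In the knockout the nearer copy had the higher mean in 7 of the 12 sets, and in 2 of the 9 sets with values in all 3 knockout libraries it was higher in each of them. The median difference between nearer and farther copy was 2.99 J numbers in wild type against 6.24 in the knockout, so that the order held in fewer sets while the median gap was larger. In the sets of TRAV14-3, TRAV7-3 and TRAV7-4 the farther copy had no value in some knockout libraries. The knockout means compared there come from different libraries, which limits the median gap. TRAV14D-3-DV8 had a value in knockout replicate 1 alone. For TRAV7-5 and TRAV7D-5, both well filled, the knockout means were 46.2 and 47.1. These sets were compared after the values were seen, and the difference between genotypes was not tested.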

How the data were processed

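Per the labels, thymocyte RNA was reverse transcribed by 5′ RACE, amplified with constant-region primers and read on a HiSeq XTen in pairs. The submitters' processing notes name fastp; which aligner, segment caller and build served is not given in the sources used here, nor is it said whether reads or clonotypes were counted. The authors deposited each library as percent of its V–J assignments. The total row and column were dropped. Depth is not stated, and the smallest value above 0 was used as the resolution of a library.

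From the percentages, the share-weighted mean Traj number, 5′ share and 3′ share within each V segment, and the mean V rank and V class shares within each J segment, were computed and tested with limma 3.58.1 (R 4.3.3) on their linear scale. A library without transcripts of a segment was left out for that segment. Segments needed a mean share of 0.5%, pairs 0.1%. Pairs were tested as log2((share + 0.0157) / (expected share + 0.0157)), the pseudocount being the smallest value of the finest library. Calls were made at a Benjamini-Hochberg adjusted p of 0.05. For the 56 values with 1 number per library, the exact permutation test was two-sided and ran over 20 arrangements. V positions came from GENCODE M21 (114 of 117 matched by name, TRAV21/DV12 as TRAV21-DV12). In the adjustment to wild-type use, a segment at 0 in a library took the mean of its genotype's other libraries, and a V segment at 0 in a whole genotype was dropped, which left 100 V segments with 99.5% of wild-type use.

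The libraries, lists and tests were chosen with earlier results of these data known. Named V segments are those with a share of at least 2% in a genotype and the 5 largest and 5 smallest changes called; named J segments are the 5 highest and 5 lowest changes and both ends. No pair was called, so the pairs named were chosen after their values were seen. The limma step was tested on simulated data. Computation used scipy 1.17.1 with numpy 2.4.6, pandas 2.3.3 and biopython 1.88 under Python 3.11.15, and matplotlib 3.10.9 for plots.
Other settings changed the filter, pseudocount, J scale, copies, weighting, low values and libraries used, and 2 of them were added after seeing the data.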

Additional observations from a re-analysis of the deposited data

How the results depend on the processing

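Depth is unknown, and resolution differs between the knockout libraries, which limits what single V segments and 3′ J segments can show. For the mean J number within V, the count of 30 stayed between 25 and 33 with 1 library left out, all higher. It was 50 without a filter on low shares (49 higher, 1 lower) and 16 with each pair counted once. Replicates of equal number did not deviate together (correlations of -0.18, -0.19 and 0.22 for this measure), and with the replicate number as a block 32 of 42 were called. The block gave 28 for the 5′ J share, 33 for the 3′ J share and 0 for the delta V share, the proximal V share, the mean V rank and the pairs. For the 5′ J share the count was 40 without a filter and 0 with each pair counted once. For the 3′ J share it was 14 (13 lower, 1 higher) with values below the coarsest library's smallest value set to 0, and 1 without knockout replicates 2 and 3. That alternative, and the one limited to segments with a value in all 6 libraries, were chosen after seeing the data. The mean V rank within J gave 0 to 11 calls with 1 library left out and 3 with each pair counted once. The delta V share gave 0 to 7, 13 without knockout replicates 2 and 3, and 0 with each pair counted once. The proximal V share gave 0 to 6.

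At wild-type V use the difference in mean J number ranged from 9.94 to 18.7 over all alternatives, and from 12.0 to 16.0 with 1 library left out. At wild-type J use the difference in delta V share ranged from 5.22 to 12.2 over all alternatives, both ends being values with 1 knockout library left out. With each pair counted once these differences reversed: TRDV2-2 mean J number (-0.87), proximal V share at wild-type J use (3.89), the position correlation without delta V (0.00594), mutual information (0.0110), the proximal minus distal 5′ share (0.118), the distal minus proximal 3′ share (3.84) and the 5′ share within delta V (-6.65). So did the ratios of distal V with Traj47-38 (-0.052), Traj37-30 (-0.0051) and Traj29-21 (-0.026), of middle V with Traj37-30 (-0.063), Traj29-21 (-0.13) and Traj20-10 (-0.14), and of proximal V with Traj37-30 (0.013). With low values set to 0, TRAV17 (-2.76), TRAV19 (-4.05), TRAV21/DV12 (-1.87), TRDV1 (-4.86), TRDV2-2 (-6.16), TRAJ38 (-6.71), TRAJ58 (-7.34), the middle V share as listed (0.76) and at wild-type J use (4.94), and the 5′ (-7.79) and 3′ (1.64) shares within delta V reversed. So did distal V with Traj29-21 (-0.15) and Traj20-10 (-0.48), middle V with Traj29-21 (-0.72) and Traj20-10 (-0.53), proximal V with Traj20-10 (0.20) and delta V with Traj47-38 (0.46). Without delta V, TRAJ58 was at -0.76. The cause of these reversals was not tested.

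With 1 library left out, differences that changed sign ranged from -0.15 to 2.50 for TRDV2-2, -1.17 to 7.25 for TRAJ58, -3.09 to 0.88 for the proximal V share at wild-type J use, -0.74 to 4.99 for the 5′ share within delta V and -0.0158 to 0.00144 for the Tcrb correlation. Among ratios they ranged from -0.059 to 0.271 (distal V with Traj29-21), -0.299 to 0.501 (distal, Traj20-10), -0.066 to 0.298 (distal, Traj37-30), -0.138 to 0.316 (middle, Traj29-21), -0.125 to 0.615 (middle, Traj37-30), -0.093 to 0.882 (middle, Traj20-10), -0.0136 to 0.176 (proximal, Traj29-21), -0.0502 to 0.0048 (proximal, Traj37-30) and -0.083 to 0.288 (delta, Traj37-30).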
